A study of Mus musculus with 6 samples.

Results

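*Onecut1*, *Onecut2* and *Onecut3* are the 3 genes of the mouse Onecut family, and their counts were read in bulk mRNA libraries of the neonatal cerebellum. The members were taken by name from the deposited table of raw counts, in which each name stood for a single row, so that 3 of 54532 listed genes are described here. The tissue was whole cerebellum at postnatal day 1. The 3 libraries labelled Ctrl came from *Tox3* f/f control littermates without Cre, and 3 libraries labelled cKO came from Nestin-cre;*Tox3* f/f conditional knockout animals, so that all 6 animals carried the floxed *Tox3* allele. Cre is driven by the Nestin promoter in neural precursors and so throughout the nervous system. Only the libraries labelled cKO carried the transgene, and an effect of Cre itself and an effect of the deletion cannot be told apart. The family was chosen by its measured counts in these same libraries, the difference between the groups included. Its fold changes between the groups are therefore given as a description, with no test.

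Onecut proteins are transcription factors that bind DNA through a single CUT domain and a homeodomain of an unusual type. *Onecut1*, first described as hepatocyte nuclear factor 6, acts in the differentiation of liver, bile ducts and endocrine pancreas, and all members are made in neurons, among them retinal horizontal and ganglion cells, spinal motor neurons and noradrenergic neurons of the brainstem. In the developing nervous system the family is also known as an early mark of a temporal sequence, in which neurons born first carry Onecut factors and those born later carry *Pou2f2* and Zfhx factors and then nuclear factor I proteins.

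In the mouse build GRCm38, *Onecut1* (ENSMUSG00000043013) lies on the plus strand at chr9:74861921-74891781 and *Onecut3* (ENSMUSG00000045518) on the plus strand at chr10:80494835-80517276. Each member has a main GENCODE transcript of 2 exons. The coding part of that transcript has 1398 bases in *Onecut1*, 1518 in *Onecut2* and 1473 in *Onecut3*, while the 3′ untranslated part makes up 55.2%, 88.4% and 65.5% of the transcript. The genes are alike in the part of the first exon that encodes the CUT domain, which is shown because reads from such a stretch could be credited to the wrong member. In the 120 bases below, from coding bases 979 to 1098 of *Onecut1* (chr9:74863275-74863394) and coding bases 1057 to 1176 of *Onecut3* (chr10:80496064-80496183), capitals mark the 11 bases that differ. Each of the 11 falls on the third position of a codon.
Onecut1: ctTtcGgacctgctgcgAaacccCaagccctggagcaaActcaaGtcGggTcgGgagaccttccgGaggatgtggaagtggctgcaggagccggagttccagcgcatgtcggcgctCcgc
Onecut3: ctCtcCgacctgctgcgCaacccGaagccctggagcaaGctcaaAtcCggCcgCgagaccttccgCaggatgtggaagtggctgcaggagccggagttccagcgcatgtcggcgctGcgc
The longest run of identical bases shared by a pair of members was 50 bases, between *Onecut1* and *Onecut3*. It was 26 bases between *Onecut1* and *Onecut2* and 38 bases between *Onecut2* and *Onecut3*. All are shorter than the 150-base reads, so that a read lying fully in any of these transcripts differs between members.

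The total count per library ran from 15391854 to 17178478, and 17505 of the 54532 genes passed a filter on low counts. Levels are given as CPM, counts divided by the normalised library size. The targeted gene *Tox3* stood at 64.3, 63.0 and 64.4 CPM in the libraries labelled Ctrl and at 55.3, 63.2 and 59.2 CPM in those labelled cKO (log2 fold change −0.11 ± 0.06 SE, adjusted p = 0.252 in edgeR). Its count covers the whole gene and not the deleted part alone, so that it does not check the labels. *Atoh1*, the factor that maintains granule neuron progenitors, was 30.9 to 32.6 CPM in the libraries labelled Ctrl and 0.249 to 0.577 CPM in those labelled cKO (log2 fold change −6.40 ± 0.19 SE, adjusted p = 8.85e-08). Libraries Ctrl2, Ctrl3 and cKO2 held *Xist* at 1983 to 2419 CPM, and libraries Ctrl1, cKO1 and cKO3 held the Y-linked gene *Ddx3y* at 68.6 to 94.5 CPM. The sexes were therefore not balanced between the groups. A gene was called at an adjusted p below 0.01 and a log2 fold change beyond 0.5, which gave 530 genes higher and 635 genes lower in the libraries labelled cKO.

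*Onecut1* was at the limit of detection in the libraries labelled Ctrl and was about 10 times as high in those labelled cKO. It had 4, 2 and 2 counts in Ctrl1, Ctrl2 and Ctrl3, and 30, 18 and 37 counts in cKO1, cKO2 and cKO3. These are 0.260, 0.130 and 0.128 CPM against 1.73, 1.17 and 2.30 CPM. Every library labelled cKO lay above every library labelled Ctrl, and the lowest of the former was cKO2. The summed counts of 85 and 8, set against library size, gave a ratio of 10.1 with an exact 95% counting interval of 4.90 to 24.1. The fitted log2 fold change was 3.27 ± 0.49 (SE, n = 3 per group). Intervals of this kind cover counting error only and leave out the spread between animals. Reads were counted without molecular identifiers, so that even the counting error may be understated. Among all genes tested, 3.03% were called higher, 20.4% had every library labelled cKO above every library labelled Ctrl, and 40.5% had groups that did not overlap in either direction. *Onecut1* was the 1 member whose groups did not overlap. The choice of the family already used this, and nothing is read from it. In bulk tissue, more cells with *Onecut1* mRNA and more *Onecut1* mRNA per cell cannot be told apart.

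**Figure D1:**
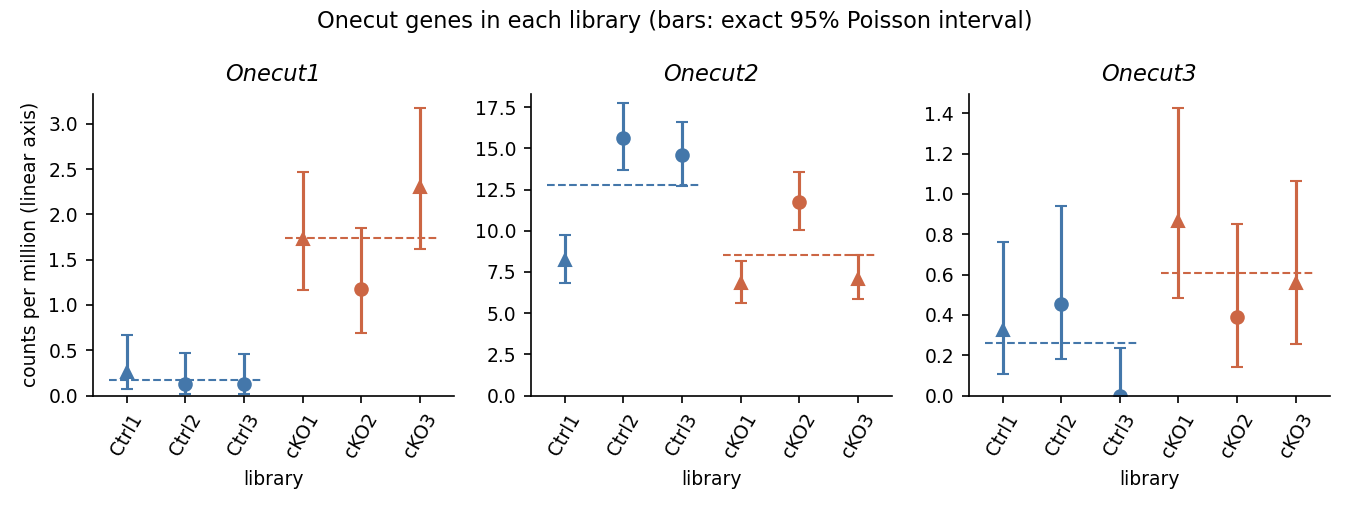
CPM (linear vertical axes) of *Onecut1*, *Onecut2* and *Onecut3* in the 6 libraries, blue for Ctrl and orange for cKO, with circles for libraries with *Xist*, triangles for libraries with Y-linked genes, bars for exact 95% Poisson intervals and dashed lines for group means. *Onecut1* is higher in all 3 libraries labelled cKO, *Onecut2* is lower in the 3 triangles than in the 3 circles, and *Onecut3* overlaps between the groups.

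The libraries labelled cKO also differed among themselves in genes of brainstem noradrenergic neurons, a population in which Onecut factors are known to be made. *Dbh*, the enzyme that makes noradrenaline, had 9, 7 and 6 counts in the libraries labelled Ctrl and 88, 11 and 200 counts in cKO1, cKO2 and cKO3. *Slc6a2*, the noradrenaline transporter, had 20, 26 and 48 counts against 244, 27 and 778. *Th*, the enzyme that makes the dopamine precursor, had 4, 6 and 4 counts against 33, 2 and 33. In each of these genes cKO1 and cKO3 were high, and cKO2 was near or within the range of the controls. Over the 6 listed noradrenergic genes the summed level was 7.81 to 9.50 CPM in the libraries labelled Ctrl and 28.3, 6.52 and 78.2 CPM in cKO1, cKO2 and cKO3. Of these 6 genes 3 passed the filter, and edgeR with the group as the only term called none of the 3. *Dbh* had a log2 fold change of 3.66 ± 0.86 (SE, adjusted p = 0.0120) in that fit. Of the 3 genes, 2 had an unadjusted p below 0.05, and DESeq2 called *Dbh* higher. With sex as a covariate, edgeR called *Dbh* higher (log2 fold change 2.71). With equal replicate numbers treated as pairs, edgeR called *Dbh* and *Slc6a2* higher (3.39 and 3.06). Without cKO2, *Dbh*, *Slc6a2* and *Th* were called higher, with log2 fold changes of 4.19, 3.95 and 2.69.

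*Onecut1* lay above every control in each library labelled cKO. Its order among them, lowest in cKO2 and highest in cKO3, was also that of the summed noradrenergic level. In cKO2, where the summed noradrenergic level was below that of every control, *Onecut1* had 18 counts, and its ratio to the summed controls was 6.79 with an exact 95% counting interval of 2.81 to 18.0. The ratio was 10.01 (4.48 to 25.3) in cKO1 and 13.3 (6.11 to 33.1) in cKO3. The 3 intervals overlapped, but all rest on the same 8 control counts, so that their overlap does not compare the libraries labelled cKO with each other. Against counting error, the counts of 30, 18 and 37 in those libraries spread at 2.88 chi-square units per degree of freedom. Choroid plexus genes followed a similar split between libraries. *Ttr*, the main secreted product of that tissue, was 67.7 to 131 CPM in the libraries labelled Ctrl and 181, 6.06 and 711 CPM in cKO1, cKO2 and cKO3. Among the libraries labelled cKO its order was again that of *Onecut1*. Hox genes of the hindbrain behind the cerebellum did not follow this split. Their summed level over 11 genes was 0.260, 0.781 and 0.193 CPM in Ctrl1, Ctrl2 and Ctrl3 and 0.981, 0.847 and 0.934 CPM in cKO1, cKO2 and cKO3. It was thus low in all libraries and higher in each library labelled cKO than in any control. Ctrl2 and cKO2 lay close together, however, and rest on few counts, with *Hoxa2* at 10 counts in Ctrl2 and 8 in cKO2. Among all genes tested, 20.4% had every library labelled cKO above every library labelled Ctrl. With cKO2 as the only library labelled cKO, a comparison chosen after seeing the data, the fitted log2 fold change of *Onecut1* was 2.70. The part of these tissues, hindbrain included, in the difference of *Onecut1* was not tested.

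**Figure D2:**
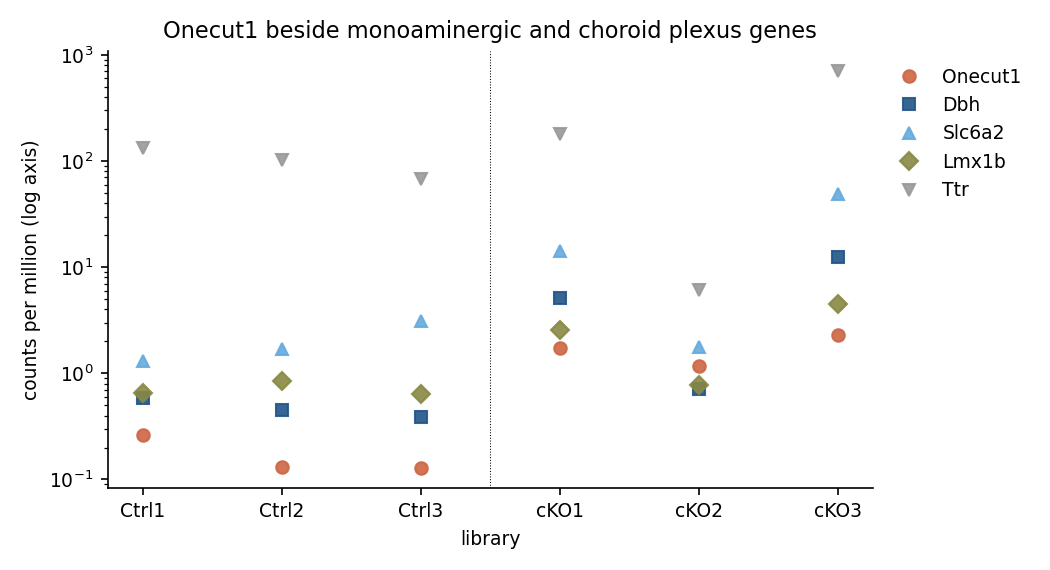
CPM (log vertical axis) in the 6 libraries for *Onecut1*, the noradrenergic genes *Dbh* and *Slc6a2*, the monoaminergic factor *Lmx1b* and the choroid plexus gene *Ttr*, each point a single library. The marker genes lie near or below control levels in cKO2, and *Onecut1* is at 1.17 CPM there, above the 0.260 CPM of the highest control. Among the libraries labelled cKO, each gene shown is lowest in cKO2 and highest in cKO3.

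The promoter of *Onecut1* is shown because the study examined E-boxes, sites of the general pattern CANNTG, as sites of Atoh1 binding. The E-boxes it tested lay in enhancers of *Atoh1* and of other target genes, and this promoter was not among them. A match to the general pattern does not mark a site of Atoh1. The 250 bases before the RefSeq start (GRCm38.p6, plus strand, chr9:74861671-74861920) are printed with E-boxes in capitals.
Onecut1 promoter: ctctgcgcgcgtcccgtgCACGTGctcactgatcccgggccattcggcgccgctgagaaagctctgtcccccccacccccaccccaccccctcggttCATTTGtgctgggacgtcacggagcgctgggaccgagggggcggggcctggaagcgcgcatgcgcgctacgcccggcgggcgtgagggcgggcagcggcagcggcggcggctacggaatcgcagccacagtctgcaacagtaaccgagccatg
The window searched ran from 250 bases before to 50 bases after the start and held 2 E-boxes. The first, CACGTG, ended 227 bases before the start. The other, with the letters CATTTG, ended 148 bases before it. CANNTG reads the same on both strands, and the more exact E-boxes searched are all matches to it as well. This pattern occurred at least once in 72.3% of 32851 promoters of the same length. The E-box CAGCTG was searched on both strands, was not in the window and was in 16.3% of promoters. The same held for CATCTG, which was in 17.2%. The core of the known Onecut site, ATTGAT, was likewise not in the window and was in 7.54% of promoters. The *Onecut1* window was 73.0% G and C, against a median of 52.7%. A match describes the letters only, and no binding was measured here.

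*Onecut2* (ENSMUSG00000045991, plus strand, chr18:64340364-64398488 in the count table) was the most abundant member in the libraries labelled Ctrl and its counts split by the sex of the animals. It had 126, 240 and 227 counts in Ctrl1, Ctrl2 and Ctrl3, and 118, 180 and 114 counts in cKO1, cKO2 and cKO3. These are 8.20, 15.6 and 14.6 CPM against 6.81, 11.7 and 7.10 CPM. The groups overlapped, since cKO2 lay above Ctrl1. The main GENCODE transcript is longer than the gene as counted, at 16234 bases over chr18:64340020-64400987, and reaches past the counted interval at both ends. The fitted log2 fold change between the groups was −0.59 ± 0.26 (SE, n = 3 per group), and it was −0.31 with sex as a covariate. Without each library in turn it ranged from −0.87 (without cKO2) to −0.42 (without Ctrl2). Among males, 8.20 CPM in the 1 control stood against a mean of 6.95 CPM in 2 libraries labelled cKO. Among females, a mean of 15.1 CPM in 2 controls stood against 11.7 CPM in the 1 library labelled cKO.

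When the libraries were set apart by *Xist*, *Onecut2* did not overlap between them. The 3 libraries with *Xist* held 13.98 ± 2.01 CPM and the 3 libraries with Y-linked genes 7.37 ± 0.74 CPM (mean ± SD). With the group in the fit, the difference was 0.82 ± 0.14 on the log2 scale (SE), and it stayed between 0.75 and 0.89 without each library in turn. As this contrast was read after the split had been noticed in the same libraries, it is a description and no test of it is given. Among all genes tested, 1.61% were called higher in the libraries with *Xist* by the same rule, and 7.99% had all libraries with *Xist* above all libraries with Y-linked genes. By the same fit *Onecut1* differed by −0.82 ± 0.46 on the log2 scale (SE).

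*Onecut2* is also a long gene, and long genes as a class moved with this split. Its length in the count table was 13391 bases, and 3.38% of the genes tested were longer. The median difference between libraries with *Xist* and with Y-linked genes was 0.08 on the log2 scale over the 1440 genes of at least 10000 bases, against −0.03 over the 3870 genes of 4000 to 6000 bases. In the longer class 9.31% of genes were called, in the shorter class 0.749%. Of all 290 genes called for this split, 1.66% of those tested, 261 were autosomal, 282 were higher with *Xist*, and their median length was 9000 bases against 3936 bases over all genes tested. Among genes of at least 10000 bases 1.18% had a difference at least as large as that of *Onecut2*, against 2.11% of all genes tested. Both shares cover genes of any level that passed the filter, and they do not weigh the part of length. Sex and this shift of long genes fall on the same libraries and cannot be told apart.

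**Figure D3:**
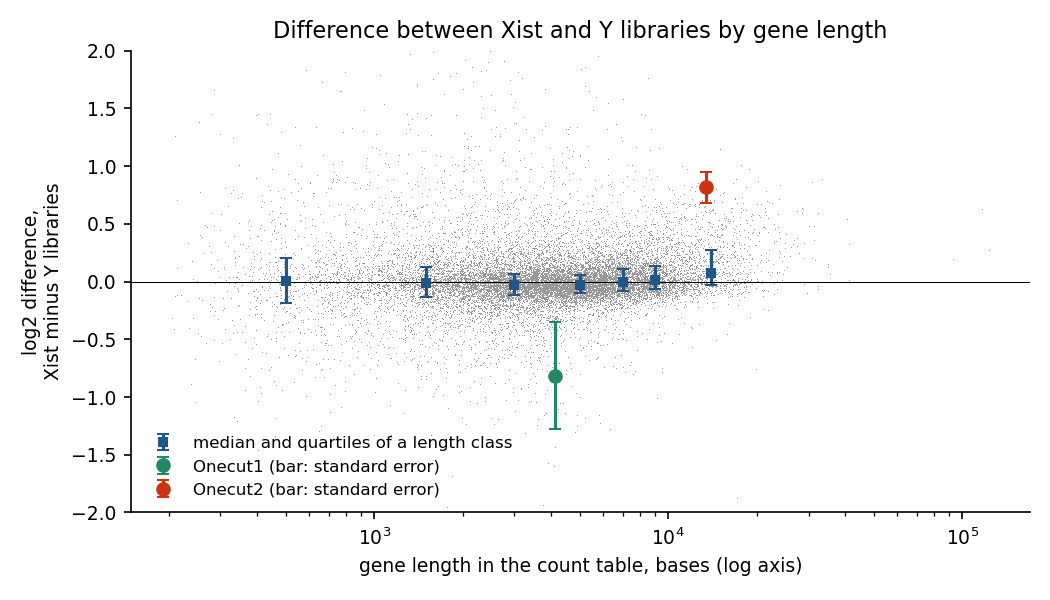
Log2 difference between libraries with *Xist* and libraries with Y-linked genes, with the group in the fit, against gene length in bases (log horizontal axis) for the genes tested, shown as grey points. Blue squares give the median and quartiles of 7 length classes, and 74 genes beyond the vertical limits are left out. *Onecut2* lies at 0.82 among the long genes, whose median is 0.08, and *Onecut1* lies at −0.82 with a wide standard error.

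*Onecut3* was detected at a few counts and did not pass the filter on low counts, so that 2 of the 3 members entered the test across genes. It had 5, 7 and 0 counts in Ctrl1, Ctrl2 and Ctrl3, and 15, 6 and 9 counts in cKO1, cKO2 and cKO3. The groups overlapped, because cKO2 lay below Ctrl2. The 0 in Ctrl3 allows a level of up to 0.193 CPM taken as 3 counts, and the exact 95% Poisson interval plotted for it reaches 0.237 CPM. The summed counts of 30 and 12 gave a ratio of 2.37 with an exact 95% counting interval of 1.18 to 5.09. This interval leaves out the spread between animals, and it is no test, as the family was chosen with this contrast known. In a fit to which the member was added, the log2 fold change was 1.21 ± 0.74 (SE). It ranged from 0.63 without Ctrl3 to 1.87 without Ctrl2.

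Levels of different genes were compared as FPKM, which divides counts by gene length. In the libraries labelled Ctrl, *Onecut2* held 0.948 ± 0.298 FPKM, *Onecut3* 0.0540 ± 0.0487 FPKM and *Onecut1* 0.0417 ± 0.0182 FPKM (mean ± SD, n = 3). *Onecut2* was above the others in every control, and the order of *Onecut3* and *Onecut1* was not settled, as their ranges overlapped. In the libraries labelled cKO, *Onecut2* held 0.634 ± 0.201 FPKM, *Onecut1* 0.420 ± 0.138 FPKM and *Onecut3* 0.126 ± 0.0506 FPKM. Here the ranges of *Onecut2* and *Onecut1* overlapped. In cKO3, *Onecut1* at 0.559 FPKM was above *Onecut2* at 0.529 FPKM, whereas *Onecut1* was above *Onecut3* in all 3 libraries labelled cKO. All members were low, for the median gene tested had 5.25 FPKM in the libraries labelled Ctrl, and 17.7% of the genes tested were below *Onecut2* there. The share of *Onecut2* in the summed FPKM of the family was 82.3% to 97.2% in the libraries labelled Ctrl and 43.9% to 70.5% in those labelled cKO. The share of *Onecut1* was 2.45% to 8.51% against 22.9% to 46.4%. The summed FPKM of the family overlapped between the groups, at 0.737 to 1.28 against 1.11 to 1.23.

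**Figure D4:**
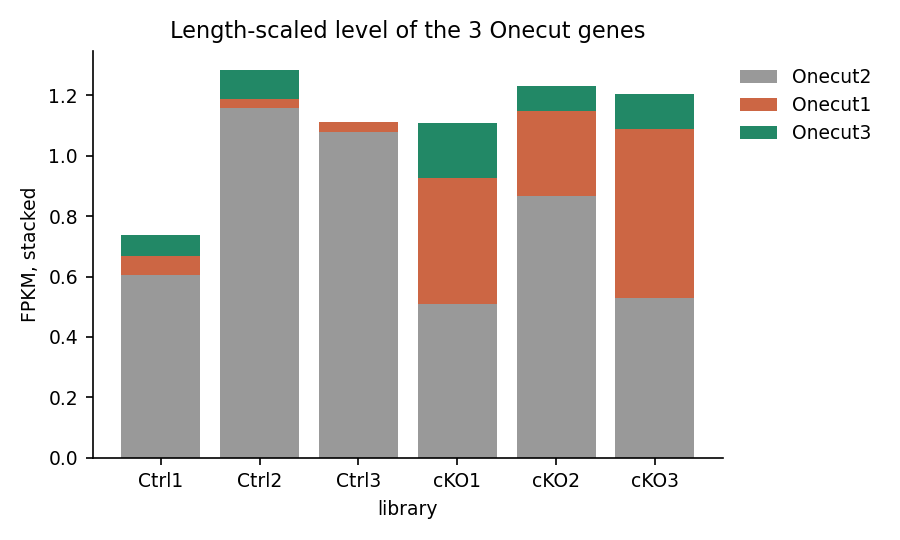
FPKM of *Onecut2* (grey), *Onecut1* (orange) and *Onecut3* (green), stacked for each of the 6 libraries on an axis from 0. The orange part is 2.45% to 8.51% of the stack in the libraries labelled Ctrl and 22.9% to 46.4% in those labelled cKO, while the height of the stacks overlaps between the groups.

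Genes with the most similar profile over the 6 libraries were found by the root mean square difference of centred log2 CPM among the genes that passed the filter. For *Onecut2* the nearest were *Brwd3*, *N4bp2*, *Prex2*, *Atm* and *Mga*, at 0.043 to 0.063 log2 units. These 5 genes are 10338 to 16609 bases long, each longer than at least 92.5% of the genes tested. The nearest to *Onecut1* were *Gm35048*, *Cbr2*, *Avpr1a*, *Ctxn3* and *5830408C22Rik*, at 0.576 to 0.623 log2 units, and those of *Onecut3* were *Tlcd2*, *Tm4sf5*, *Gm5532*, *Gm11670* and *Gmfg*, at 0.269 to 0.349 log2 units. *Avpr1a*, a vasopressin receptor, was 0.260 to 0.456 CPM in the libraries labelled Ctrl and 1.24 to 1.61 CPM in those labelled cKO. As likeness was measured over both groups, the difference of such a gene between them follows from its choice.

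Genes beside the members were read to see whether a change reached beyond the member itself. Within 100 kb of the 3 members lay 24 other genes, of which 14 passed the filter. None of these was called by edgeR or by DESeq2, against 6.66% of all genes tested by edgeR, and 4 had an unadjusted p below 0.05. Beside *Onecut1* the only gene tested was *Fam214a*, 61.1 kb downstream, with a log2 fold change of −0.15 ± 0.13 (SE, adjusted p = 0.441). The non-coding gene *Gm16551*, which ends 1.79 kb before *Onecut1* on the same strand, had 0, 0 and 1 counts in the libraries labelled Ctrl and 3, 2 and 2 in those labelled cKO. *Gm20649*, which overlaps *Onecut1* on the same strand, had 0 counts in all libraries, and how reads shared by both genes were assigned is not given in the sources used here. Beside *Onecut2*, *Fech*, the last enzyme of haem synthesis, differed by 0.04 ± 0.07 and *St8sia3*, a sialyltransferase, by −0.28 ± 0.09 (adjusted p = 0.702 and 0.0509). Beside *Onecut3*, *Tcf3*, a partner of proneural factors, had an adjusted p of 0.000643 but a log2 fold change of −0.34 ± 0.05 (SE), short of the size required. The other 9 genes tested beside *Onecut3* had log2 fold changes of −0.33 to 0.26.

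Among other mouse genes whose proteins carry CUT domains, values are given for *Cux1* and *Cux2*, known from upper cortical layers, and for the chromatin organiser *Satb1*. All 3 passed the filter, and none was called by edgeR or DESeq2, while 2 had an unadjusted p below 0.05. These were *Cux1* and *Satb1*, which differed by −0.27 ± 0.05 and −0.36 ± 0.06 on the log2 scale (SE, adjusted p = 0.00361 and 0.00308), short of the size required for a call. *Cux2* differed by 0.07 ± 0.06 (adjusted p = 0.405). The median over the 3 genes was −0.27, against −0.01 over all genes tested. By FPKM, *Cux1* stood at 11.0 ± 0.596 in the libraries labelled Ctrl, above every Onecut gene.

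Factors that follow Onecut in the temporal sequence gave 2 calls among 10 genes, both lower and both late factors. Over all genes tested, 3.03% were called higher and 3.63% lower. None of the 4 intermediate factors was called by edgeR or DESeq2 and none had an unadjusted p below 0.05, with log2 fold changes of −0.11 for *Pou2f2*, −0.15 for *Zfhx2*, 0.24 for *Zfhx3* and −0.07 for *Zfhx4*, and a median of −0.09. Of the 6 late factors, 2 were called lower and none higher. *Nfia* had 269, 255 and 233 CPM in the libraries labelled Ctrl and 169, 156 and 183 CPM in those labelled cKO (log2 fold change −0.57 ± 0.07 SE, adjusted p = 0.000390). *Nfib* had 598, 688 and 665 CPM against 402, 475 and 419 CPM (log2 fold change −0.59 ± 0.07 SE, adjusted p = 0.000401). Both fell in every library labelled cKO. *Nfix*, of the same gene family, differed by 0.01 ± 0.05 (adjusted p = 0.866), and *Neurod2*, *Tcf4* and *Neurod6* had log2 fold changes of −0.31, −0.44 and −0.10. The median over the 6 late factors was −0.37. Nuclear factor I genes are also expressed in granule neurons and their progenitors, and all 7 listed genes of granule neuron progenitors were called lower in the same libraries, with a summed level of 1183 to 1308 CPM against 465 to 520.0 CPM. The part of that in the fall of *Nfia* and *Nfib* was not tested.

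**Figure D5:**
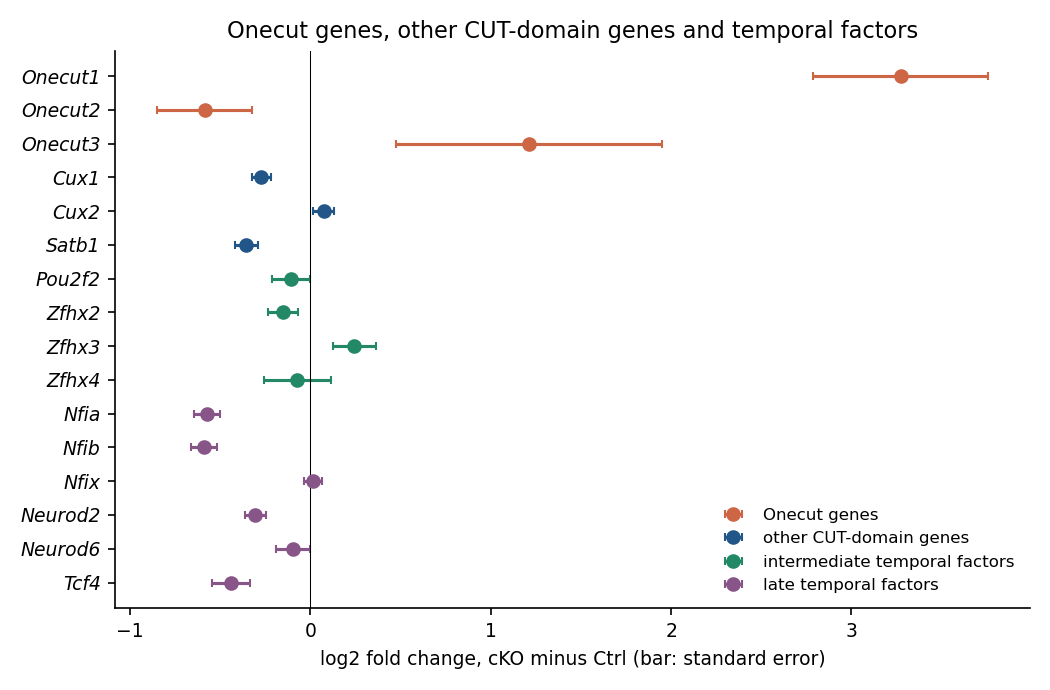
Log2 fold change between the libraries labelled cKO and Ctrl, with standard errors as bars, for the 3 Onecut genes, 3 other CUT-domain genes, the 4 intermediate and the 6 late temporal factors. *Onecut1* at 3.27 lies farthest from 0, and *Nfia* and *Nfib* lie at −0.57 and −0.59.

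Of 14 listed partners of *Onecut1* in the liver and pancreas 5 passed the filter, and *Cebpa*, a factor of hepatocytes and of other cells, was the 1 called higher (12.2 against 23.0 CPM, log2 fold change 0.91 ± 0.12 SE, adjusted p = 0.000623). *Foxa1*, *Gata4*, *Pdx1* and *Neurog3* had 0 counts in all 6 libraries, and *Hnf4a* had at most 4. Of 8 hepatocyte products 1 passed the filter, and it had neither an unadjusted p below 0.05 nor a call by either tool. *Alb* and *Afp* had at most 3 and 11 counts in a library, and the summed level of the 8 was 2.67 to 3.19 CPM in the libraries labelled Ctrl and 0.912 to 2.25 CPM in those labelled cKO.

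Among 12 factors that accompany Onecut genes in the retina, all were tested, 3 were called higher and 3 lower, with a median of 0.02. The shares called over all genes tested were 3.03% higher and 3.63% lower. *Tfap2b* and *Tfap2a*, factors of horizontal and amacrine cells and, in the cerebellum, of GABAergic neurons, rose by 0.66 ± 0.05 and 0.58 ± 0.08 on the log2 scale (adjusted p = 1.87e-05 and 0.000635). *Otx2*, a factor of photoreceptors and bipolar cells and also of the midbrain and of cerebellar unipolar brush cells, fell from 52.9 to 23.6 CPM (log2 fold change −1.16 ± 0.08 SE, adjusted p = 1.81e-05). *Pou4f2*, a factor of retinal ganglion cells and of the dorsal midbrain, fell from 4.63 to 0.393 CPM (log2 fold change −3.54 ± 0.45 SE, adjusted p = 0.000453). The other two called genes, named after their values were seen, were *Foxn4*, which acts upstream of *Onecut1* in horizontal cells, at 1.48 ± 0.31 and *Ptf1a*, which specifies GABAergic cells, at −1.18 ± 0.24. Each of these 2 calls was lost on leaving out 5 of the 6 libraries in turn. *Foxn4* was still called without cKO1 and *Ptf1a* without cKO2, and over the 6 cases the values ranged from 1.27 to 1.68 and from −1.34 to −1.0. The midbrain list, which shares *Otx2* and *Pou4f2*, had a summed level of 96.4 to 111 CPM in the libraries labelled Ctrl and 46.9 to 52.1 CPM in those labelled cKO, and 3 of its 7 genes tested were called lower. These were *Otx2*, *Pou4f2* and *Barhl2*, a factor of the diencephalon and midbrain that fell from 34.2 to 11.4 CPM (log2 fold change −1.58 ± 0.09 SE, adjusted p = 7.02e-06). *Otx2* and *Barhl2* carried most of the sum, and the median over the 7 genes was −0.05, with 3 of the 7 at log2 fold changes above 0. What part midbrain tissue or cells of the cerebellum had in these falls was not tested.

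Motor neuron and Renshaw cell genes gave 1 call among 3 tested of 10 listed. This was *En1*, a factor of Renshaw cells and of the embryonic midbrain and anterior hindbrain, which fell from 32.7 to 11.3 CPM (log2 fold change −1.54 ± 0.17 SE, adjusted p = 0.000234). The defining motor neuron genes *Mnx1* and *Chat* had at most 2 and 5 counts in a library. Of 6 midbrain dopaminergic genes 2 were tested and none was called by edgeR, while 1, *Lmx1b*, had an unadjusted p below 0.05 and was called higher by DESeq2. *Lmx1b*, a factor of dopaminergic and serotonergic neurons, had 10, 13 and 10 counts in the libraries labelled Ctrl and 44, 12 and 73 in cKO1, cKO2 and cKO3, a split like that of *Dbh*. Across these 9 lists together, 37 of 65 genes were tested, 4 were called higher and 6 lower, beside 3.03% and 3.63% of all genes tested. The lists were chosen with earlier results of these data known, so that nothing is read from this comparison.

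The labelled tissue was checked against its own markers. All 10 Purkinje cell genes and all 10 GABAergic genes were detected and tested. Of the former 5 were called higher and none lower, and of the latter 4 were called higher and 1 lower. Over all genes tested, 3.03% were called higher and 3.63% lower, and these lists were chosen with earlier results known. The summed level of the Purkinje cell genes was 1712 to 1845 CPM in the libraries labelled Ctrl and 2287 to 2773 CPM in those labelled cKO. That of the GABAergic genes was 625 to 655 CPM against 815 to 844 CPM. Of 5 granule neuron genes tested 4 were called lower. Of 5 genes each, glutamatergic nuclear neurons gave 1 higher and unipolar brush cells 1 higher and 1 lower. Their summed levels were 123 to 130 and 197 to 211 CPM in the libraries labelled Ctrl. In those labelled cKO the sums were 113 to 117 and 172 to 177 CPM, below every control. The median log2 fold changes of these 2 lists were 0.22 and 0.05. Meninges, also with 5 genes, gave 3 higher. Endothelium and erythrocytes, with 5 each, gave none by edgeR or DESeq2, and 1 and 0 genes had an unadjusted p below 0.05. The 4 choroid plexus genes gave no call by either tool, and 1 had an unadjusted p below 0.05. None of the 11 Hox genes passed the filter, and 8 of them had at most 3 counts in every library. How far these shifts in cell type markers take part in the level of any Onecut gene was not tested.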

How the data were processed

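Poly(A) RNA of 6 P1 cerebella was sequenced by the authors as 150-base read pairs, mapped to mm10 (GRCm38) with HISAT2 (2.0.5) and assigned to genes with featureCounts (1.5.0-p3), per the labels and the study's methods. The annotation release and the strand setting are not given in the sources used here. The authors deposited raw counts per gene and FPKM, that is, fragments scaled by gene length and library depth, for the same libraries. Both sexes were used in the study.

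Counts of 54532 genes were filtered with filterByExpr, which kept 17505 genes holding 99.8% of all counts, scaled by TMM and tested with edgeR's quasi-likelihood test (edgeR 4.0.16, R 4.3.3) on the 6 libraries with the group as the only term, with Benjamini-Hochberg adjustment over all genes tested. Adjusted p-values are from this fit unless stated. SE is the log2 fold change divided by the square root of F. The prior count was 0.125. A gene was called at an adjusted p below 0.01 and a log2 fold change beyond 0.5. *Onecut3* was fitted with the members added to the filtered genes. Libraries were called female where *Xist* exceeded the summed Y-linked coding genes. The fit was tested on simulated data. The depth sets the precision, since 3 counts equal 0.173 to 0.196 CPM. Counting intervals are exact Poisson for a library and exact conditional binomial for a ratio of summed counts. Libraries of a group differed by 4.03 to 12.1 chi-square units per gene, more than sampling noise, and none was counted as a duplicate. The labels do not say whether replicates came from separate litters, so that p-values measure the spread between these libraries.

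The members and gene lists were chosen with earlier results of these data known. Named genes were the members, their neighbours within 100 kb, the called genes of each list (at most 4, by p), the genes of the CUT-domain and temporal lists (1 result is not reported here), the 5 genes most alike to each member (prior count 2), and *Tox3*, *Atoh1*, *Xist* and *Ddx3y*. Gene positions and lengths are those of the count table, transcripts are from GENCODE on GRCm38, and the promoter is from RefSeq, in which 1 of 3 members matched. Alternatives were DESeq2 (1.42.0), its size factors, library size alone, no filter beyond 1 count, at least 10 counts in every library, the replicate block, sex as a covariate, leaving out each library, limma (3.58.1) on log2(FPKM + 1) and log2(FPKM + 0.1), a prior count of 1, an adjusted p below 0.05 and, added after seeing the data, cKO2 as the only library labelled cKO.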

Additional observations from a re-analysis of the deposited data

How the results depend on the processing

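*Onecut1* stayed higher and *Onecut2* lower in the libraries labelled cKO, and *Onecut3* higher, under all alternatives run. At least 10 counts in every library removed *Onecut1* and *Onecut3*, which then had no value. Log scales with a pseudocount shrank low genes by construction. With limma on log2(FPKM + 1) the log2 fold change of *Onecut1* was 0.44 and that of *Onecut3* 0.10, and on log2(FPKM + 0.1) that of *Onecut1* was 1.85. With cKO2 as the only library labelled cKO, the lone library being assumed to vary like the controls, *Onecut1* was at 2.70, *Onecut2* at −0.14, and 143 genes were called higher and 281 lower over all genes, 2 of them higher in the 9 lists that follow Onecut biology. That fit has fewer samples. Without each library in turn, *Onecut1* ranged from 3.02 to 3.67, *Onecut2* from −0.87 to −0.42 and *Onecut3* from 0.63 to 1.87. The counts of genes called ranged from 349 (without cKO3) to 569 higher and from 492 to 778 lower, and in the 9 lists from 3 to 7 higher and from 5 to 7 lower. The 7 arose without cKO2 and included *Th*, *Dbh*, *Slc6a2* and *Lmx1b*. Without a filter on low counts 8 were higher, again with those 4 added. An adjusted p below 0.05, a looser threshold, called 838 genes higher. limma on log2(FPKM + 1) called 330, and the cause was not tested. Neighbouring genes gave 0 calls under every alternative run.

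The replicate block, which treats equal replicate numbers as pairs, gave 561 genes higher and 696 lower, against 530 and 635, and log2 fold changes of 3.26, −0.58 and 1.25 for *Onecut1*, *Onecut2* and *Onecut3*. Deviations from the group mean correlated at 0.39, 0.47 and −0.26 between libraries of the same number. Libraries of the same sex but of unlike number gave 0.44 (Ctrl1 and cKO3) and 0.31 (Ctrl3 and cKO2). The correlations thus follow the split by sex, on which the shift of long genes also falls. Such correlations cannot tell whether the numbers pair the samples. DESeq2 gave 3.34, −0.58 and 1.23. Among named list genes, 143 values under alternatives kept their call and 16 did not, of which 8 were of *Foxn4* and 6 of *Ptf1a*. At 0 to 37 counts per library, the depth limits every statement on *Onecut1* and *Onecut3*.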

Other observations

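Within each sex the group means kept their order for all 3 members, with 1 library on one side each time and so no test. The single libraries did not always do so, as *Onecut3* in females was 0.391 CPM in cKO2 and 0.456 CPM in Ctrl2. Among males the log2 ratio of mean CPM between libraries labelled cKO and Ctrl was 2.95 for *Onecut1*, −0.24 for *Onecut2* and 1.13 for *Onecut3*. Among females it was 3.18, −0.36 and 0.78.

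The spread between libraries of a group, as chi-square per degree of freedom against counting error, was 0.510 for *Onecut1* in the libraries labelled Ctrl and 2.88 in those labelled cKO. For *Onecut2* it was 19.4 and 14.3, and for *Onecut3* 3.29 and 1.55.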
